A study of Mus musculus with 21 samples.

Results

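The immediate early genes Fos, Fosb, Jun, Junb, Egr1, Ier2, Atf3, Dusp1 and Nr4a1 and the heat shock gene Hspa1b were followed through the developing mouse testis. These 10 genes were taken by name, and 13 of the 45101 probe sets on the array carried one of them as its only gene. After a filter on dim probe sets, 9 of the 10 were among 14338 genes tested, and Fosb was not. Whole testes came from wild-type mice of the outbred CD-1 stock, and every group shares this genotype. The 20 testis arrays covered gestation day (gd) 11 (Theiler stage 18, 5 arrays, each a pool of 2), gd12 (stage 20, 3 arrays, each a pool of 5), and 3 arrays of single animals each at gd14 (stage 22), gd16 (stage 24), gd18 (stage 26) and postnatal day (pnd) 2 (stage 27). One further array held a pool of 8 whole newborn males and females at pnd 0.5. The series' design text instead describes 3 single animals at every time, which goes against the pools and the 5 arrays at gd11 that the sample labels give, and the labels were followed.

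Immediate early genes are transcribed within minutes of a stimulus without new protein synthesis, because their activators wait in the cell and are switched on by kinases. Growth factors, hormones, calcium and cell stress all reach them through serum response factor, its ternary complex partners and CREB, and their products are mostly transcription factors or feedback inhibitors of the same kinases. Hspa1b encodes an inducible 70 kDa heat shock protein, a chaperone switched on by heat shock factor when proteins unfold. In steroid-producing cells Egr1 and Nr4a1 are also known as hormone-responsive factors, and Nr4a1 as an activator of steroidogenic enzyme genes. Because both families react quickly to dissection, chilling and lack of oxygen, their level in an excised organ can carry the history of the tissue as well as its stage. Per the labels, dams were killed with carbon dioxide, fetuses were decapitated, and the gonads were frozen after excision. The sources used here do not give the time from death to freezing, so stage and the handling that went with it cannot be told apart.

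Values are intensities per probe set in arbitrary units, and the number of arrays limits their precision. Near background means a level under 71.6, the 40th percentile over the testis arrays. Differences are on the scale of log2(intensity + 22.4), later minus earlier stage, with the standard error (SE) of 1 limma fit over all genes, and understate the change of dim genes. Because stage values on these arrays were known when the 10 genes were chosen, their differences are given as a description, with no p-value, and nothing is read from whether one passed a threshold. Replicate numbers run on through the series and pair no samples. The summed intensity of 7 Sertoli cell markers was 780 to 1980 at gd11 and 31514 to 56370 from gd14 on, and that of 6 germ cell markers was 774 to 1626 at gd11 and 32594 to 36560 at gd14. Summed neural markers (8 genes) reached 62727 and 38930 on gd11 replicates 16 and 17, against 4121 to 9037 on the other gd11 arrays. Signal ratios of control probe sets were taken from the 3′ to the 5′ end of the transcript. Those of beta-actin were 1.19 to 1.29 at gd11 and 1.27 to 1.42 at the later stages. Those of Gapdh went the other way, with 0.717 to 0.813 at gd11 and 0.667 to 0.702 at pnd2.

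The sequences before the transcription start of Fos, Nr4a1 and Dusp1 are shown because they hold the letters TGACG, the core of the CREB and ATF recognition sequence, more than once. Each is the 250 bases upstream of the RefSeq start on GRCm38.p6, read 5′ to 3′ on the gene's strand, with TGACG or its reverse complement CGTCA in capitals. Fos lies at chr12:85473640-85473889 on the + strand, Nr4a1 at chr15:101266596-101266845 on the + strand, and Dusp1 at chr17:26508473-26508722 on the - strand.
Fos: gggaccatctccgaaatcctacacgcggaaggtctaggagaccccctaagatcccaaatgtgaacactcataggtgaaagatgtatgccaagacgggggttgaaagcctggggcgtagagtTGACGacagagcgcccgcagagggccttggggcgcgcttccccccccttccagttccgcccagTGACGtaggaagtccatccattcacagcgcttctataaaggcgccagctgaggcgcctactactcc
Nr4a1: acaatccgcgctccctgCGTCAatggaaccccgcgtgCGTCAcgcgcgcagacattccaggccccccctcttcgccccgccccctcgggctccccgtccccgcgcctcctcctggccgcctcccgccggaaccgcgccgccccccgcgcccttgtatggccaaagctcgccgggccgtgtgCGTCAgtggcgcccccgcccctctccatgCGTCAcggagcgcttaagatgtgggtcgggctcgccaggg
Dusp1: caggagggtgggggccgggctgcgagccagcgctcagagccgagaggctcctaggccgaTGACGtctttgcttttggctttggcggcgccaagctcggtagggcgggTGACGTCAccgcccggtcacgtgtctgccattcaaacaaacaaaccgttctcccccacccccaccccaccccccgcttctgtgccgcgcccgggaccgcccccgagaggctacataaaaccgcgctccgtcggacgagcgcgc
Counted from the start site, the first base of a match lay at -129 and -66 in Fos, at -233, -213, -69 and -40 in Nr4a1, and at -191, -143 and -140 in Dusp1. The pair at -143 and -140 in Dusp1 overlap and form the full palindrome TGACGTCA. Fosb (-60), Junb (-106) and Atf3 (-7) had 1 match each, and Jun and Hspa1b had none. Over both strands, 17.8% of 32851 mouse promoter windows of the same length held TGACG and 1.55% held TGACGTCA. RefSeq windows were used for 8 of the 10 genes, all except Egr1 and Ier2. A match to these letters is a description and says nothing of binding.

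The Hspa1b window is shown with that of its neighbour Hspa1a, since both genes encode the inducible chaperone. No protein-coding gene lies between them in the RefSeq order. Capitals mark GAANNTTC, a head-to-head pair of the units that heat shock factor recognises. Hspa1b lies at chr17:34959239-34959488 and Hspa1a at chr17:34972157-34972406, both on the - strand of GRCm38.p6.
Hspa1b: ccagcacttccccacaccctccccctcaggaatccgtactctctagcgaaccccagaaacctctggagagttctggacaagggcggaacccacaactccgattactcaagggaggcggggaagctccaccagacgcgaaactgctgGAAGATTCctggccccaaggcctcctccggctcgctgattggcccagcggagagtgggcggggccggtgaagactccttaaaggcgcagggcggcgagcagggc
Hspa1a: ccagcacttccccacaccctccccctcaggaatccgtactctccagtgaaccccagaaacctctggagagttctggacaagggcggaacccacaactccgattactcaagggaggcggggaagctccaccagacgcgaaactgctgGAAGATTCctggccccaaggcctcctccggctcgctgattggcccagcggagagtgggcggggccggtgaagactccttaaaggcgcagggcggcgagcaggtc
These windows had 247 of 250 bases in common (98.8%). With positions counted from the 5′ end and the Hspa1b base first, they differed by T44C, C47T and G249T. In both, the GAANNTTC match began at -104 and a CCAAT match at -67. Jun also held GAANNTTC, at -128, and CCAAT, at -65, while the other 6 immediate early windows held no GAANNTTC. Over both strands, 6.69% of all windows held GAANNTTC and 33.8% held CCAAT. Probes for near-identical genes can pick up both transcripts, so the Hspa1b and Hspa1a signals below are uncertain as to which of the genes they report.

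Egr1, a zinc finger transcription factor, had a higher mean at each later stage, 9.37 times as high at pnd2 as at gd11. The 5 gd11 pools read 499, 470, 629, 642 and 522, and the gd12 pools 1303, 545 and 1163. The gd14 testes read 1128, 1457 and 1326, those of gd16 1886, 1790 and 2483, those of gd18 3516, 2746 and 2822, and those of pnd2 7509, 3816 and 4212. Each stage from gd16 on lay wholly above the one before it, while gd12 overlapped both of its neighbours, with replicate 14 inside the gd11 range. The log2 difference from gd11 to pnd2 was 3.12 ± 0.24 (SE), and the single steps were 0.75 ± 0.24, 0.45 ± 0.26, 0.64 ± 0.26, 0.56 ± 0.26 and 0.71 ± 0.26 in order of age. Without gd12 replicate 14 the first of these steps was 1.14 and the next 0.07. In bulk tissue, fewer cells of a type and less RNA per cell cannot be told apart.

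Nr4a1, an orphan nuclear receptor also called Nur77, showed its largest step between gd11 and gd12. The gd11 pools read 198, 216, 314, 249 and 234, and the gd12 pools 684, 472 and 959, with no overlap. Later values were 863, 997 and 756 at gd14, 1047, 992 and 898 at gd16, 1859, 1675 and 1326 at gd18, and 1252, 3017 and 1292 at pnd2. The gd18 testes also lay wholly above those of gd16, whereas the pnd2 testes overlapped gd18, with replicate 2 far above the other 2. The step from gd11 to gd12 was 1.42 ± 0.24 and that from gd16 to gd18 was 0.70 ± 0.27. From gd12 to gd14 the difference was 0.35 ± 0.27, and it turned to -0.14 without gd12 replicates 13 and 14. From gd18 to pnd2 it was 0.08 ± 0.27, and it turned to -0.33 without pnd2 replicate 2. From gd11 to pnd2 it was 2.72 ± 0.24, and 2.31 without that array.

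Fos, the partner of Jun in the AP-1 dimer, stayed low through gd14, had a somewhat higher mean at gd16 and stood higher at gd18 and pnd2. Its values were 105, 125, 98.8, 109 and 144 at gd11, 140, 120 and 114 at gd12, and 127, 106 and 72.2 at gd14. They were 186, 122 and 169 at gd16, 329, 300 and 267 at gd18, and 527, 346 and 286 at pnd2. The gd18 and pnd2 testes overlapped each other and lay above every younger testis. The first 3 stages overlapped, and gd16 replicate 8 (122) lay within the range of each of them. The log2 difference from gd16 to gd18 was 0.84 ± 0.23 and that from gd11 to pnd2 was 1.53 ± 0.20. From gd16 to gd18, 6 of 18 hypoxia response genes were called higher and 0 lower, beside 1.7% and 3.18% of all genes, and 3 were higher without gd16 replicate 8. Ndrg1 rose from 505 ± 41.0 to 1220 ± 124 (SD, n = 3 and 3; limma adjusted p = 0.000528). Bnip3 (0.67 ± 0.19) and P4ha1 (0.66 ± 0.13) rose too, and both calls were lost without gd16 replicate 8. From gd18 to pnd2, 8 of the 18 were called lower and 0 higher, beside 5.26% and 2.54% of all genes. The summed intensity of the 18 was 36104 to 45542 at gd11, 34752 to 39083 at gd12 and 28884 to 31098 at gd14. It was 26898 to 31989 at gd16, 35799 to 41427 at gd18 and 26322 to 28038 at pnd2. Summed macrophage and leukocyte markers (12 genes) were 2785 to 5102 at gd11, 1959 to 3978 at gd12, 1749 to 2388 at gd14, 2466 to 3985 at gd16, 4074 to 7429 at gd18 and 4502 to 5060 at pnd2. Summed smooth muscle and peritubular markers (8 genes) were 2501 to 20319 at gd11, 4547 to 6481 at gd12 and 15283 to 16131 at gd14. They were 20661 to 24923 at gd16, 27166 to 34304 at gd18 and 28618 to 42977 at pnd2. The part of these cell types and of the hypoxia genes in the Fos levels was not tested.

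**Figure D1:**
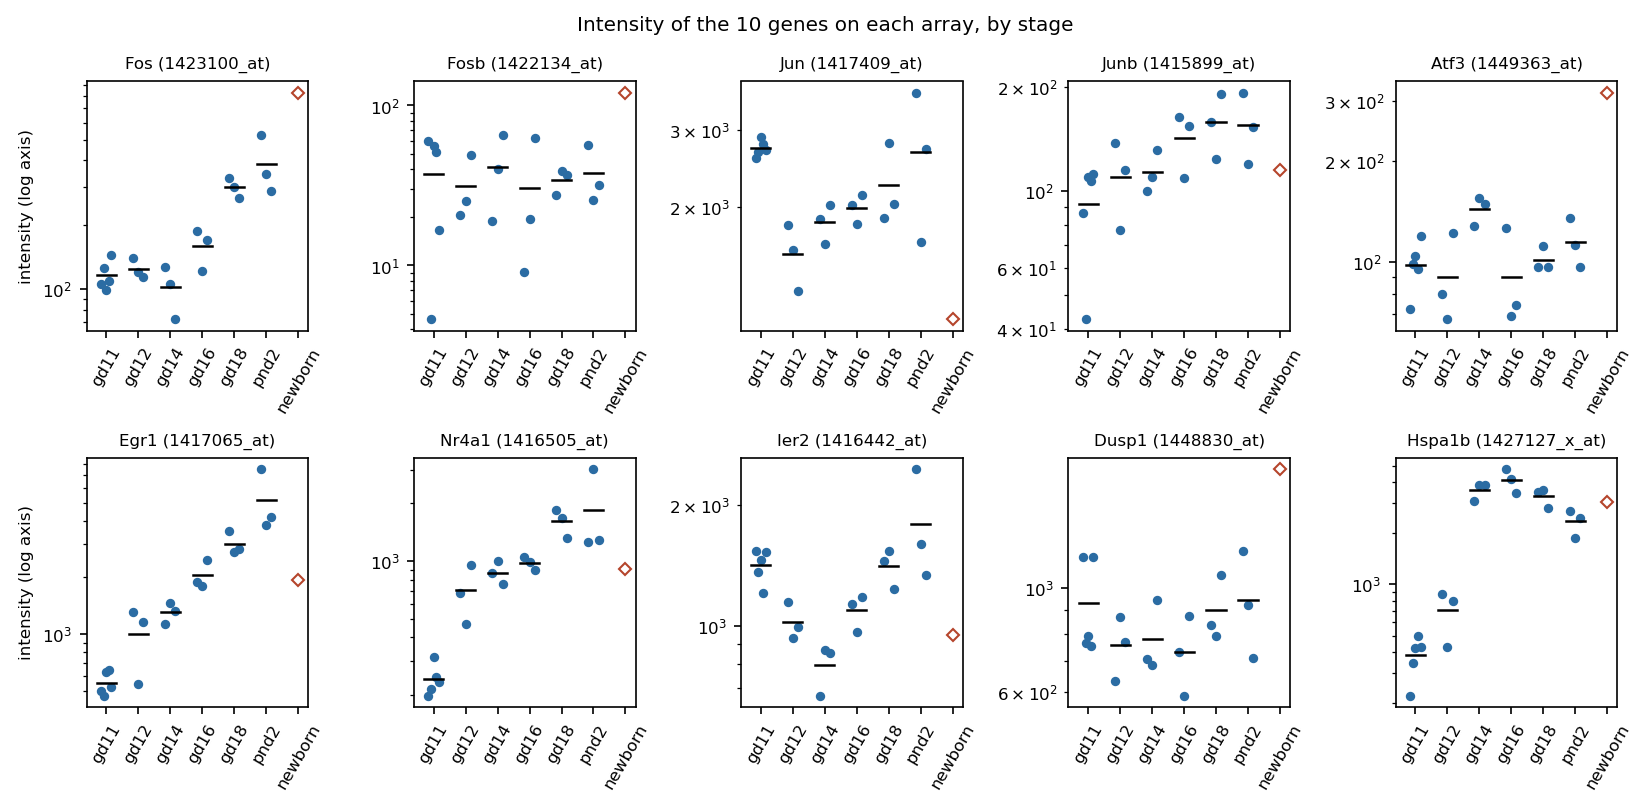
Intensity (log axis, arbitrary units) of the 10 genes by stage, 1 panel per gene with its probe set. Filled points are single testis arrays (5 at gd11, 3 at each later stage), bars are stage means, and the open diamond is the newborn pool. Egr1, Nr4a1 and Fos stand highest at gd18 and pnd2, Hspa1b steps up between gd12 and gd14, Jun and Ier2 have a minimum at gd12 or gd14, and Fosb scatters between 4.61 and 65.2 in the testis at every age.

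Among the other AP-1 genes, Jun went the opposite way at the start of the series. Its probe set 1417409_at, which stands for the gene, read 2583, 2674, 2892, 2789 and 2705 at gd11 and 1820, 1590 and 1282 at gd12, with no overlap. It read 1874, 1646 and 2023 at gd14, 2018, 1826 and 2131 at gd16, 1887, 2803 and 2032 at gd18, and 3646, 1664 and 2709 at pnd2. The gd11 to gd12 difference was -0.81 ± 0.18, and each later step lay between 0.11 ± 0.20 and 0.25 ± 0.20, so that gd11 and pnd2 differed by -0.10 ± 0.18 overall. The pnd2 arrays spread from 1664 to 3646, wider than any other stage, and without pnd2 replicate 2 the difference from gd11 to pnd2 was 0.20. The other probe set, 1448694_at, had its minimum at gd14 instead, with a mean of 1263 ± 196 at gd11 (SD, n = 5), 843 ± 334 at gd12 (n = 3) and 664 ± 63.0 at gd14 (n = 3). On that probe set gd11 and gd12 overlapped, with gd12 replicate 13 at 1228, and the difference was -0.62. Its difference was -0.27 from gd12 to gd14 and -0.50 from gd11 to pnd2, and the arrays overlapped in both comparisons.

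Junb, an AP-1 subunit that can restrain Jun, was dim throughout, between 42.7 and 192. Its stage means were 91.6 ± 29.2 at gd11, 110 ± 30.9 at gd12, 114 ± 15.7 at gd14, 142 ± 29.3 at gd16, 158 ± 33.3 at gd18 and 155 ± 36.0 at pnd2, and every stage overlapped its neighbours. The gd11 to pnd2 difference was 0.67 ± 0.25, with all 3 pnd2 arrays above all 5 gd11 pools. Fosb, a close relative of Fos, was near background on all 20 testis arrays, from 4.61 on gd11 replicate 17 to 65.2 on gd14 replicate 12. Its stage means ran from 30.4 ± 28.5 at gd16 to 41.4 ± 23.2 at gd14, and no order of stages can be read from values this dim.

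Ier2, a small nuclear protein gene, traced a trough. Its values were 1539, 1366, 1464, 1208 and 1532 at gd11, 1146, 929 and 990 at gd12, and 668, 871 and 855 at gd14, each stage wholly below the one before. They were 1136, 962 and 1177 at gd16, 1454, 1534 and 1238 at gd18, each stage wholly above the one before, and 2461, 1598 and 1339 at pnd2, overlapping gd18. The steps were -0.47 ± 0.15, -0.35 ± 0.17, 0.45 ± 0.17, 0.36 ± 0.17 and 0.31 ± 0.17. Without pnd2 replicate 1 the last of these was 0.06, and the difference from gd11 to pnd2 was 0.05 in place of 0.29 ± 0.15. With the beta-actin ratio as a covariate the first step was -0.15.

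Atf3 and Dusp1 varied little with stage. Atf3, a stress-induced CREB family repressor, read 128, 155 and 148 at gd14, above the gd12 values of 80.2, 67.4 and 122 and the gd16 values of 126, 68.9 and 74.3. Its stage means otherwise lay between 89.6 ± 31.3 at gd16 and 114 ± 19.6 at pnd2. The steps into and out of gd14 were 0.59 ± 0.24 and -0.60 ± 0.24. Dusp1, a phosphatase that switches off MAP kinases, had stage means between 731 ± 141 at gd16 and 944 ± 246 at pnd2, and every stage overlapped the next. Its gd11 pools split into 1167 and 1166 for replicates 16 and 20 and 752 to 792 for the other 3. Its difference from gd11 to pnd2 was 0.02 ± 0.19.

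Hspa1b was low at gd11 and gd12, was 5.13 times as high at gd14 as at gd12, was highest at gd16 and was lower again at pnd2. The probe set that stands for it, 1427127_x_at, read 221, 344, 420, 496 and 429 at gd11, 879, 430 and 798 at gd12, and 3113, 3871 and 3826 at gd14. It then read 4763, 4198 and 3443 at gd16, 3505, 3583 and 2824 at gd18, and 2701, 1876 and 2471 at pnd2. The highest gd11 or gd12 value, 879, lay below the lowest value of any later testis, 1876, and on this probe set the pnd2 testes lay wholly below those of gd18. The log2 differences were 0.83 ± 0.23 from gd11 to gd12, 2.38 ± 0.25 from gd12 to gd14, 0.19 ± 0.25, -0.32 ± 0.25 and -0.50 ± 0.25 at the later steps, and 2.58 ± 0.23 from gd11 to pnd2. The step from gd12 to gd14 was 2.58 on probe set 1427126_at and 2.61 on 1452318_a_at, and both had their highest mean at gd16. At pnd2 the 3 probe sets had ratios to gd18 of 0.812, 0.711 and 0.718 in the order 1427126_at, 1427127_x_at and 1452318_a_at, and on the first and the last of these the gd18 and pnd2 arrays overlapped.

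Hspa1a, represented by 1452388_at, read 3.20, 34.7, 22.2, 73.7 and 80.4 at gd11, 109, 90.1 and 181 at gd12, and 661, 644 and 639 at gd14. It read 1128, 1029 and 569 at gd16, 523, 1068 and 645 at gd18, and 806, 911 and 1146 at pnd2. Its step from gd12 to gd14 was 2.22 ± 0.41, close to that of Hspa1b, but its mean at pnd2 (954 ± 174) was above its mean at gd18 (745 ± 286), where those of the 3 Hspa1b probe sets were below. The summed intensity of 5 markers of fetal Leydig cells, which make androgens, was 159 to 554 at gd11, 827 to 4248 at gd12, 36257 to 40315 at gd14, 53546 to 68378 at gd16, 29487 to 44370 at gd18 and 14751 to 20004 at pnd2. The part of these cells in the Hspa1b and Hspa1a levels was not tested.

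The genes most like Hspa1b over the 20 testis arrays, by Pearson correlation of log2 values, were Aebp1 (0.979), Cyp11a1 (0.978), Cyp17a1 (0.977), Ephx1 (0.976) and Hsd3b1 (0.976). Cyp11a1, Cyp17a1 and Hsd3b1 encode enzymes of steroid synthesis. Cyp17a1 had stage means of 6.78 ± 2.14 at gd11, 378 ± 293 at gd12, 17100 ± 765 at gd14, 26700 ± 2830 at gd16, 13000 ± 4940 at gd18 and 4000 ± 2150 at pnd2. After each stage mean was subtracted, Cyp11a1 and its companions were no longer among the closest 5, which were Rela (0.898), Nectin2 (0.894), Resf1 (0.892), Rilpl1 (0.891) and Six5 (0.890). These are correlations over arrays that share their stages, given as a description of 20 arrays. Hspa1b and the latter 5 genes all had their lowest gd11 value on replicate 16 and their lowest gd12 value on replicate 14. The part of these arrays in the correlations was not tested.

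**Figure D2:**
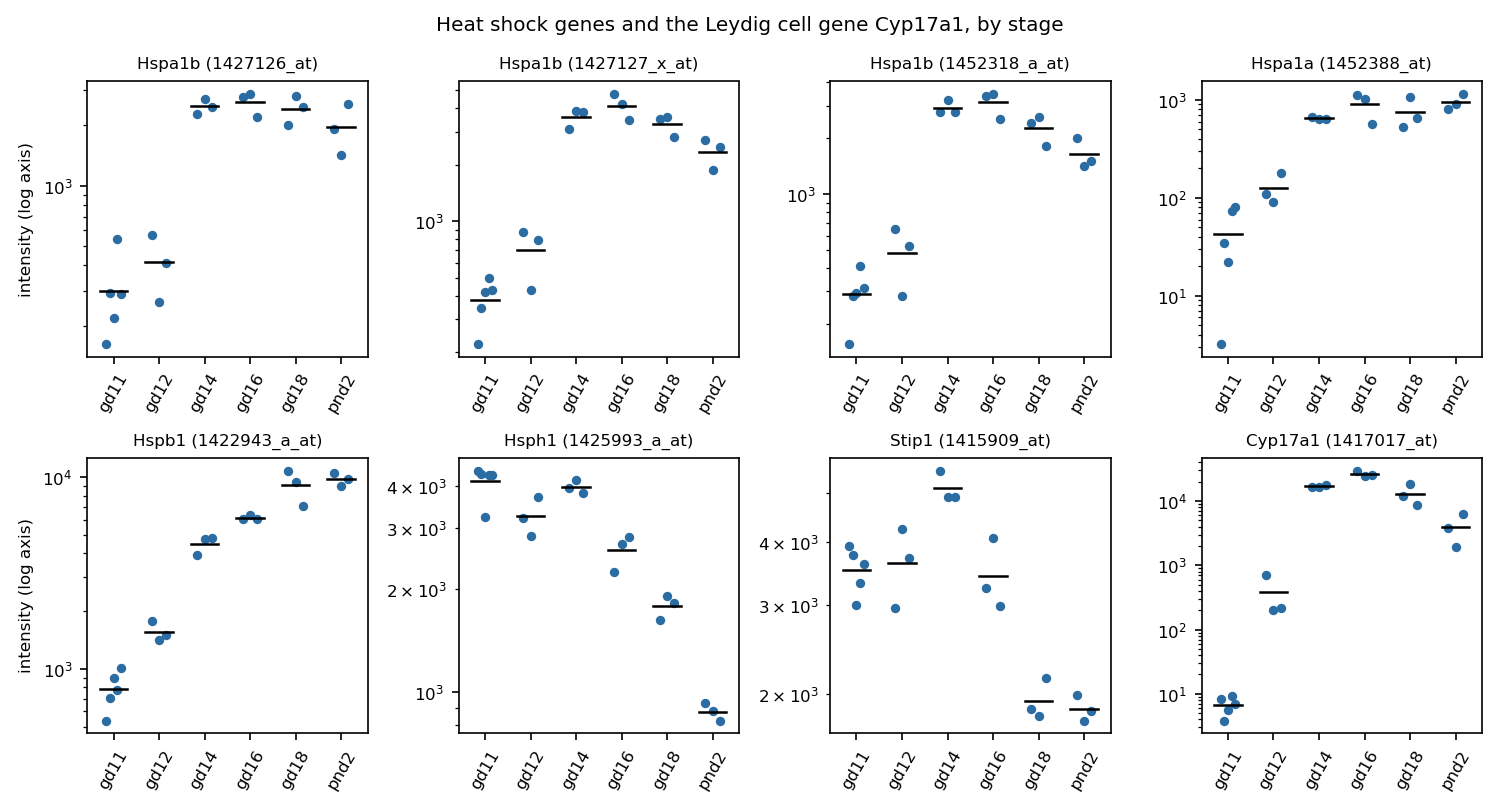
Intensity (log axis, arbitrary units) by stage of the 3 Hspa1b probe sets, of Hspa1a, of the heat shock genes Hspb1, Hsph1 and Stip1, and of the Leydig cell gene Cyp17a1. Points are single testis arrays and bars are stage means (n = 5 at gd11, 3 at each later stage). All 3 Hspa1b panels step up between gd12 and gd14, Hspb1 climbs from 784 to 9710 between gd11 and pnd2, and Hsph1 drops from 4110 to 877.

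The same likeness measure set Egr1 beside Exoc3l2 (0.976), Fuca1 (0.971), Sh3gl2 (0.970), Sh3bp5 (0.968) and Map3k21 (0.968), which all had higher means at pnd2 than at gd11. Exoc3l2 went from 131 ± 27.5 to 3190 ± 533 between these ends of the series. Fos was most like Asb2 (0.930), Cd44 (0.929), Thbs2 (0.928), Cd34 (0.928) and Map3k20 (0.927). Cd44, a hyaluronan receptor on leukocytes and stromal cells, had means of 134 ± 27.7 at gd14, 317 ± 30.3 at gd16, 1040 ± 360 at gd18 and 1260 ± 326 at pnd2. With stage means subtracted, the closest genes to Fos were Zfp800 (0.750), 2610316D01Rik (0.721), B9d2 (0.720), Zfp326 (0.702) and Kbtbd4 (0.700), none of them shared with the first list.

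The share of the variance over the 20 arrays that lay between stages differed widely among these genes. They were chosen with stage values known, so the shares are given as a description, and stage here includes the handling that went with it. The share between stages was 95.8% for Hspa1b, 92.7% for Egr1, 91.3% for Nr4a1 and 89.2% for Fos, against a median of 66.4% over all 14338 genes. It was 77.8% for Ier2, 60.7% for Jun, 47.9% for Junb, 47.4% for Atf3 and 24.8% for Dusp1. The within-stage standard deviation of log2 values ran from 0.23 for Ier2 to 0.37 for Nr4a1, and its median over all genes was 0.24.

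In limma with Benjamini-Hochberg adjustment over all genes, a gene is called at an adjusted p below 0.05. From gd11 to gd12, 3 of the 9 tested genes were called higher (Egr1, Nr4a1 and Hspa1b) and 2 lower (Jun and Ier2), beside 21.4% of all genes called (11.2% higher and 10.2% lower). From gd12 to gd14 Hspa1b alone was called, as higher, beside 18.7% of all genes (11.4% higher and 7.34% lower), and from gd14 to gd16 none was, beside 10.4% (5.39% and 4.99%). From gd16 to gd18 Fos alone was called, as higher, beside 4.88% (1.7% and 3.18%), and from gd18 to pnd2 none was, beside 7.8% (2.54% and 5.26%). From gd11 to pnd2, 5 were called higher (Fos, Junb, Egr1, Nr4a1 and Hspa1b) and 0 lower, beside 48.6% (24.2% and 24.4%). Arrays of the 2 stages did not overlap for 3, 3, 3, 4, 2 and 5 of the 9 genes over these 6 comparisons, beside 20.7%, 37.5%, 39.1%, 28.7%, 33.5% and 44.6% of all genes. The genes were chosen with these contrasts known, so nothing is read from the counts. The counts moved when single arrays were left out: the gd16 to gd18 count was 0 without pnd2 replicate 2, gd18 replicate 4 or 5, gd16 replicate 7, 8 or 9, or gd14 replicate 11, and the gd11 to gd12 count was 3 without gd12 replicate 13 and 2 without gd12 replicate 15. The Junb call was lost without pnd2 replicate 1 or 3 or gd11 replicate 17. One gene was called from gd14 to gd16 without pnd2 replicate 1 and from gd18 to pnd2 without gd12 replicate 14, and 2 from gd12 to gd14 without gd12 replicate 15.

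Among the animals of one age, pnd2 replicate 1 had the highest value of the 3 pnd2 arrays for 9 of the 10 genes. The exception was Nr4a1, for which it had the lowest. Of the 9, Fosb was near background, and Hspa1b was read on 1427127_x_at. On 1427126_at, Hspa1b was highest on replicate 3 (1923, 1414 and 2557 in order), and Hspa1a was lowest on replicate 1 (806, 911 and 1146). Replicate 1 was the highest of the 3 for 29.5% of all genes, for 19 of 42 further immediate early genes and for 11 of 27 further heat shock genes. The ratio of replicate 1 to the mean of replicates 2 and 3 was 1.67 for Fos, 1.87 for Egr1, 1.68 for Ier2, 1.67 for Jun, 1.47 for Dusp1, 1.41 for Junb, 1.30 for Atf3 and 1.24 for Hspa1b, with a median of 0.979 over all genes. For Nr4a1 it was 0.581. On that array the summed smooth muscle and peritubular markers (8 genes) were 28618, against 39782 and 42977 on the other pnd2 arrays, and the summed germ cell markers were 6132 against 9223 and 9003. Its summed hypoxia response genes were 26322 against 28038 and 26681. Its beta-actin ratio was 1.35 against 1.33 and 1.42, and its Gapdh ratio was 0.667 against 0.702 and 0.694. The part of these cell types, of the hypoxia genes and of RNA quality in the high values was not tested. At other ages no array was highest for more than 6 of the 10 genes, the number for gd12 replicate 13 (38.4% of all genes). The lowest value lay on gd16 replicate 8 for 7 of the 10 genes (35.3%). It lay on gd12 replicate 14 and on gd14 replicate 10 for 6 each (35.2% and 36.4%).

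**Figure D3:**
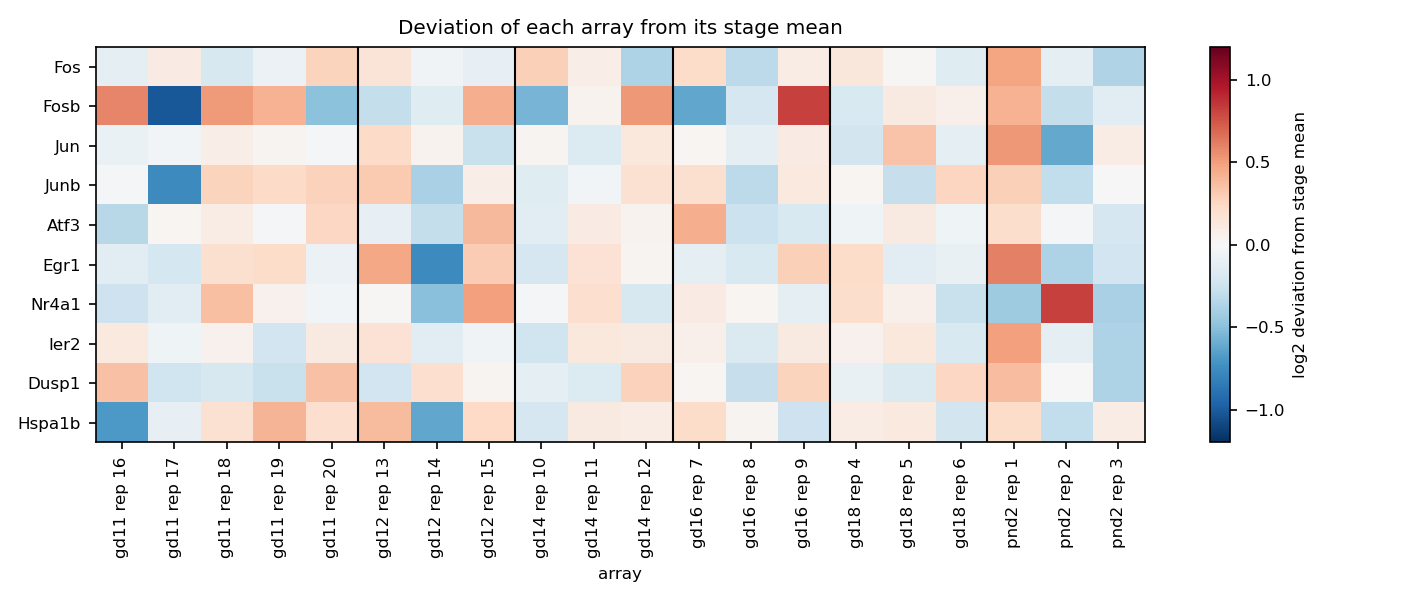
Deviation of each testis array from the mean of its stage (colour, log2 units, red above and blue below) for the 10 genes (rows) over the 20 arrays (columns, grouped by stage). The column of pnd2 replicate 1 is red in 9 of 10 rows and blue for Nr4a1, and gd12 replicate 14 is blue for 6 genes that had their lowest gd12 value there.

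The newborn pool, a single array with no replicate, held more Fos, Fosb, Atf3 and Dusp1 signal than any testis array. Fos read 828 against at most 527 in the testis, Fosb 120 against at most 65.2, Atf3 318 against at most 155, and Dusp1 1792 against at most 1200. The pool exceeded every testis array for 19.4% of all genes. Egr1 (1929), Jun (1107, on the probe set that stands for it), Ier2 (949) and Nr4a1 (906) read lower in the pool than their means in pnd2 testis. The log2 differences, pnd2 minus pool, were 1.35, 1.18, 0.86 and 0.89 in this order, with a median of 0.11 over all genes. On the other Jun probe set, 1448694_at, the pool read 1134, above the pnd2 mean of 913 ± 320 (SD, n = 3). That reading lay within the range of the pnd2 arrays, 655 to 1271. Hspa1b read 3048 in the pool on 1427127_x_at and 2420 on 1452318_a_at, above the pnd2 testes on both. On 1427126_at the pool read 1936, within the range of the pnd2 arrays, 1414 to 2557. Hspa1a read 539, below the pnd2 testes. The pool holds every organ of the newborn, among them muscle and blood, and its summed macrophage and leukocyte markers were 22881, so no difference between it and the testis arrays is a difference of testis cells alone.

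A list of 44 further immediate early genes, of which 42 passed the filter (all except Fosl1 and Arc), showed movement in both directions. From gd11 to pnd2, 16 rose, 8 fell and 18 were not called, beside 24.2% of all genes called higher and 24.4% lower, with a median difference of 0.18 beside -0.03 over all genes. The Egr1 relatives Egr2 and Egr4 were near background at gd11 and rose with it, Egr2 from 16.9 ± 16.5 to 535 ± 167 (3.88 ± 0.34, limma adjusted p = 2.37e-08) and Egr4 from 23.6 ± 16.8 to 306 ± 65.5 (2.89 ± 0.27, limma adjusted p = 5.11e-08; SD, n = 5 and 3). Ccn2, a matricellular protein gene, rose from 582 ± 227 to 3080 ± 553 (2.43 ± 0.23, limma adjusted p = 5.23e-08). Egr3, the remaining member of that family, was not called, with a difference of -0.27 ± 0.27. Nr4a2 and Nr4a3, the relatives of Nr4a1, were not called either, with differences of 0.03 ± 0.19 and -0.52 ± 0.64. Among the MAP kinase phosphatases, Dusp5 and Dusp6 rose by 1.95 ± 0.32 and 0.76 ± 0.16, while Dusp4 fell by 2.25 ± 0.53 on the log2 scale (-0.82 and not called with the beta-actin ratio as a covariate). Jund, the third Jun gene, rose from 3990 ± 946 to 9030 ± 1870 (1.19 ± 0.16, limma adjusted p = 4.58e-06). The Egr3, Nr4a, Dusp and Jund genes were named after their values were seen, as relatives of the 10.

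The timing of these genes differed from one to the next. Egr4 had the largest single step, from 37.0 ± 19.3 at gd12 to 544 ± 43.9 at gd14 (3.30 ± 0.30, limma adjusted p = 8.2e-07), and then stood at 256 to 363 on the gd16 arrays. Egr2 stepped at gd16, from 30.6 ± 21.5 to 132 ± 45.9 (1.57 ± 0.38), and at pnd2, from 156 ± 47.9 to 535 ± 167 (1.64 ± 0.38). The first Egr2 call was lost without gd16 replicate 7 or 9 or gd14 replicate 10 or 12, with a largest limma adjusted p of 0.0736, and the second without pnd2 replicate 2 or gd18 replicate 4 (0.0717). Ier3, an early gene linked to cell survival, fell by 1.11 ± 0.20 from gd14 to gd16 and rose by 1.08 ± 0.20 from gd16 to gd18. Dusp5 (1.26 ± 0.32), Cebpb (0.99 ± 0.20) and Klf4 (0.93 ± 0.25) rose from gd11 to gd12, the last of these not without gd12 replicate 14. Nfkbiz fell by 1.18 ± 0.26 and Gadd45g by 0.97 ± 0.31 from gd12 to gd14, Gadd45g not without gd14 replicate 10 or 12 or gd12 replicate 14 or 15. Further calls each depended on at least 2 single arrays. These were Klf10 from gd14 to gd16 (0.77 ± 0.23), and Klf2 (1.1 ± 0.25) and Gadd45b (0.78 ± 0.22) from gd16 to gd18. Cebpb (-0.99 ± 0.22) and Klf2 (-0.86 ± 0.25) from gd18 to pnd2 were such calls too. The Gadd45b call was lost in 12 of the fits that left out 1 array, with a largest limma adjusted p of 0.186. The later Klf2 call was lost in 7, and the Klf10 call without any one of the 6 arrays compared.

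Counts for the further immediate early genes at the single steps were 5 higher and 3 lower from gd11 to gd12, 6 and 5 from gd12 to gd14, 3 and 2 from gd14 to gd16, 3 and 0 from gd16 to gd18, and 2 and 2 from gd18 to pnd2. Of all genes, 11.2% and 10.2%, 11.4% and 7.34%, 5.39% and 4.99%, 1.7% and 3.18%, and 2.54% and 5.26% were called higher and lower at these steps. The sum for the list from gd11 to gd12 was 5 without gd12 replicate 14 or 15, and from gd12 to gd14 it was 18 without gd11 replicate 16. From gd14 to gd16 it was 1 without gd16 replicate 7 or 9 or gd14 replicate 10 or 12 and 2 without gd14 replicate 11. From gd16 to gd18 it was 1 without gd18 replicate 4 or 5 or gd16 replicate 8 and 7 without gd11 replicate 16. From gd18 to pnd2 it was 0 without pnd2 replicate 2, 1 without gd18 replicate 4 or 6, 2 without pnd2 replicate 3, gd18 replicate 5, gd16 replicate 7 or gd14 replicate 11, and 7 without gd11 replicate 16.

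More genes of a list of further heat shock and chaperone genes fell than rose with age. Of 29 listed genes 27 passed the filter (Hspa1l did not, and Hsp90ab1 was not analysed here), and from gd11 to pnd2 6 rose, 13 fell and 8 were not called, beside 24.2% of all genes called higher and 24.4% lower, with a median difference of -0.28 beside -0.03 over all genes. The 6 that rose were Hspa1a, Hspb1, Cryab, Hspb8, Hspa2 and Dnajb4. Hspb1, a small heat shock protein gene, rose from 784 ± 179 to 9710 ± 746 (3.62 ± 0.16, limma adjusted p = 1.19e-12), Hspa1a by 4.06 ± 0.36 (limma adjusted p = 2.81e-08), and Cryab, which encodes the small chaperone alpha-B crystallin of muscle and lens, from 163 ± 130 to 662 ± 82.9 (2.20 ± 0.42, limma adjusted p = 0.000244). With the beta-actin ratio as a covariate, 3 of the 6 were not called, Cryab (a difference of 1.51), Hspb8 (0.60) and Dnajb4. The Dnajb4 call (0.47 ± 0.15) was also lost without pnd2 replicate 2, without gd11 replicates 16 and 17, with its probe sets averaged and with only the 2 stages fitted. Among those that fell, Hsph1, a nucleotide exchange factor for 70 kDa chaperones, went from 4110 ± 497 to 877 ± 51.9 (-2.19 ± 0.11, limma adjusted p = 1.03e-11). The major cytosolic chaperone genes Hsp90aa1 (21300 ± 592 to 12600 ± 375), Dnaja1 (12400 ± 683 to 7100 ± 445) and Hspa8 (29000 ± 1250 to 21300 ± 1430) fell too, as did Hspd1 of the mitochondrion (12800 ± 657 to 7940 ± 405). Dnajb1 and Bag3 were not called, with differences of -0.19 ± 0.10 and 0.07 ± 0.19. Genes of this paragraph beyond Hspa1a, Hspb1 and Cryab were named after their values were seen.

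At the single steps the heat shock list gave 5 higher and 3 lower from gd11 to gd12, 7 and 1 from gd12 to gd14, 0 and 9 from gd14 to gd16, 0 and 9 from gd16 to gd18, and 2 and 3 from gd18 to pnd2, to be set against the same shares of all genes. Hspb1 rose by 1.0 ± 0.16 and then by 1.51 ± 0.18 over the first 2 steps, and Hspa4l by 1.64 ± 0.40 at the second (limma adjusted p = 0.00775, and not called when all its probe sets were averaged). Hspa4 (-0.78 ± 0.16), Hsph1 (-0.61 ± 0.12) and Stip1 (-0.59 ± 0.13) fell from gd14 to gd16, in which step Hspa1b had its highest values. Stip1 (-0.81 ± 0.13), Ahsa1 (-0.56 ± 0.12) and Hsph1 (-0.53 ± 0.12) fell from gd16 to gd18, and Hsph1 again by 1.0 ± 0.12 from gd18 to pnd2. Without gd16 replicate 9 or gd14 replicate 10 the first Stip1 call was lost and the gd14 to gd16 count was 5. The gd16 to gd18 count was 1 without gd18 replicate 4, 2 without gd16 replicate 8 and 4 without gd16 replicate 7; the Ahsa1 call was lost without gd18 replicate 4 or gd16 replicate 8, and the Hsph1 call without either of these or gd16 replicate 9. From gd11 to gd12 the sum was 2 without gd12 replicate 15, 4 without gd12 replicate 14 and 5 without gd11 replicate 17, and the calls of Hspa1a (1.32 ± 0.36) and Hspa13 (-0.68 ± 0.23) were lost without gd12 replicate 15. The Hspa13 call was also lost without gd12 replicate 14, gd16 replicate 7 or gd11 replicate 17, 19 or 20. From gd12 to gd14 it was 5 without gd12 replicate 13. From gd18 to pnd2 it was 1 without pnd2 replicate 2 and 2 without pnd2 replicate 1 or 3 or gd18 replicate 4 or 6, the Chordc1 call (-0.51 ± 0.11) was lost without pnd2 replicate 2, and the Hspa4 call (0.57 ± 0.16) was lost without any one of the 6 arrays compared.

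**Figure D4:**
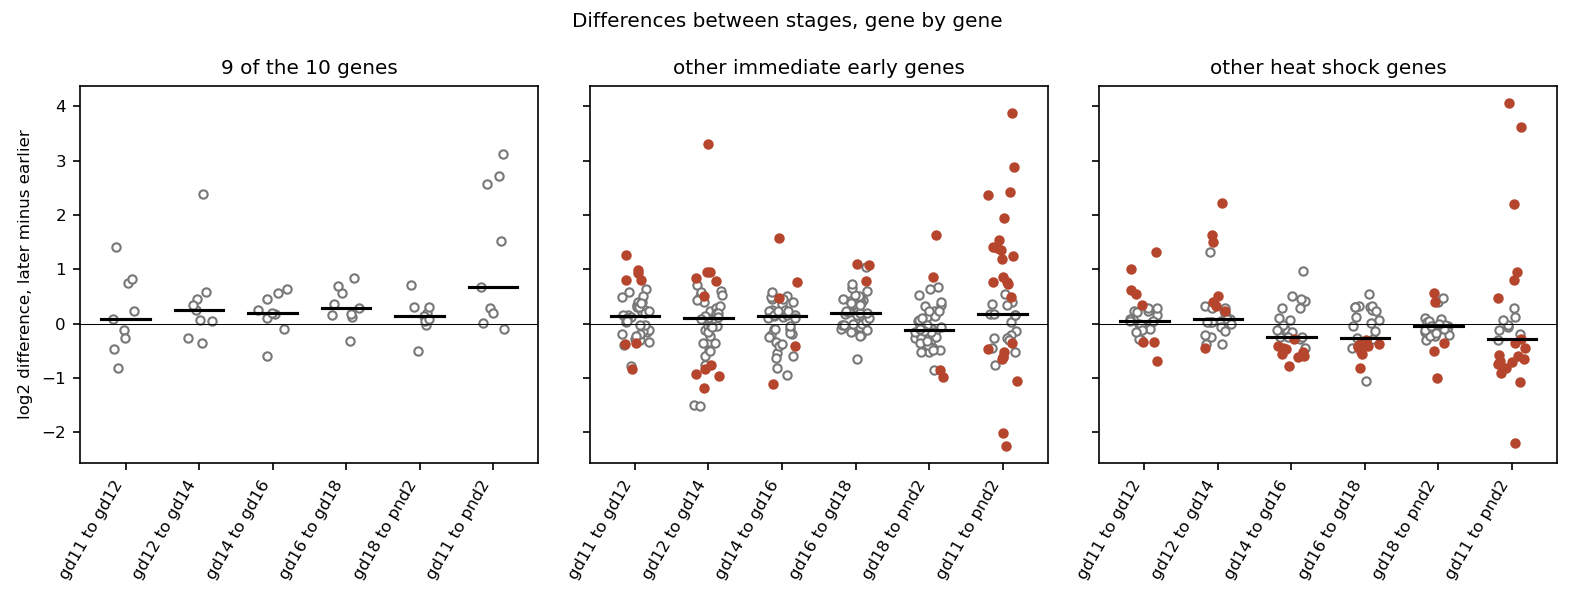
Log2 difference between stages (later minus earlier) for single genes, for 9 of the 10 genes, 42 further immediate early genes and 27 further heat shock and chaperone genes. Filled red points passed an adjusted p of 0.05 in limma, open points did not, calls are not marked for the 9 genes, and bars are medians. From gd14 to gd16 and from gd16 to gd18 every called gene of the heat shock panel lies below 0, and its gd11 to pnd2 column spans -2.19 to 4.06.

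Of 15 listed upstream regulators, 12 were tested, and the others were not analysed here. From gd11 to pnd2, 1 rose (Elk4, a ternary complex factor, from 916 ± 50.8 to 1490 ± 107) and 3 fell (Elk3, Map2k1 and Map2k2), beside 24.2% of all genes called higher and 24.4% lower. The sum was 2 without pnd2 replicate 1, which ended the calls of Map2k1 and Map2k2, and 5 without gd11 replicate 16. Srf, the serum response factor itself, fell from 847 ± 17 at gd12 to 614 ± 44.2 at gd14 (-0.45 ± 0.15, limma adjusted p = 0.0401), and the call was lost without any one of the 6 arrays compared. From gd18 to pnd2 its difference was 0.45 ± 0.15, which was not called (limma adjusted p = 0.07).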

How the data were processed

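The authors deposited 1 intensity per probe set and array on a linear scale. The submitters' processing notes name GCOS, Affymetrix's operating software for these arrays, and which version and algorithm was not given in the sources used here. The mean with the lowest and highest 2% trimmed was 500 on every array, and values were used as deposited. Of 45101 probe sets, 34945 carried 1 gene symbol in the platform table, 932 several, 9160 none, and 64 were controls. Probe sets were kept if 3 or more of the 20 testis arrays showed them above that array's 40th percentile. Where a gene had several, the one with the highest average log2 value stood for it, and 22.4, the 20th percentile, was added before log2. All testis arrays entered 1 limma fit of stage means (limma 3.58.1, R 4.3.3, intensity trend, 14 residual degrees of freedom), adjusted by Benjamini-Hochberg. On simulated data for gd12 to gd14, it recovered 28.4% of genes changed 1.5-fold, 67.2% of those changed 2-fold and 87.9% of those changed 4-fold. Of 14338 genes in that simulation, 67, 67 and 66 were changed by these amounts, and there were 18 false calls. The 10 genes and all gene lists were chosen with earlier results of these data known. Named from each wider list were up to 3 called genes per comparison with the largest log2 difference, with Hspa1a and Srf, and the 5 genes most like Fos, Egr1 or Hspa1b. Hypoxia response genes were named only for gd16 to gd18, all 4 called upstream regulators were named for gd11 to pnd2, and other genes outside this rule are marked in the text. The labels name no batch, and p-values measure the spread between arrays, which at gd11 and gd12 are pools. No detection calls or scan dates were used. Alternatives were no filter, pseudocounts of 10 and 64, quantile normalization, the mean of a gene's probe sets, no intensity trend, only the 2 stages compared, the beta-actin 3′ to 5′ ratio as a covariate, and leaving out gd11 replicates 16 and 17, gd12 replicates 13 and 14, or each array in turn.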

Additional observations from a re-analysis of the deposited data

How the results depend on the processing

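Pseudocounts of 10 and 64 and quantile normalization moved no count of calls by over 1.5 times. Over all alternatives the gd11 to pnd2 difference was 2.82 to 3.39 for Egr1, 2.31 to 3.20 for Nr4a1, 1.29 to 1.71 for Fos and 2.32 to 2.73 for Hspa1b, and the gd12 to gd14 difference of Hspa1b was 2.07 to 2.57. The cause of the moves below was not tested, except that a fit of 2 stages or fewer arrays has fewer residual degrees of freedom. No paired analysis was possible because no replicate number is shared between stages.

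Counts are given for the steps gd11 to gd12, gd12 to gd14, gd14 to gd16, gd16 to gd18, gd18 to pnd2 and the span gd11 to pnd2. Without a filter, 0 of the 9 genes were called from gd16 to gd18. With probe sets averaged, 5 further immediate early genes were called from gd11 to gd12, and 5 and 3 further heat shock genes from gd12 to gd14 and from gd18 to pnd2. Without the trend, 2 of the 9 were called from gd12 to gd14, 3 and 2 further immediate early genes from gd14 to gd16 and gd18 to pnd2, and 4 and 2 further heat shock genes from gd16 to gd18 and gd18 to pnd2. With only the 2 stages compared, 3, 2, 3 and 1 of the 9 were called from gd11 to gd12, gd14 to gd16, gd16 to gd18 and gd18 to pnd2, further immediate early genes numbered 4, 17, 13, 8 and 7 over the 5 steps, further heat shock genes 2 from gd11 to gd12, and all genes 1286, 3020 and 1143 from gd11 to gd12, gd14 to gd16 and gd16 to gd18. With the beta-actin covariate, 2 of the 9, 1 further immediate early gene, 2 further heat shock genes and 1156 genes in all were called from gd11 to gd12, 3 further heat shock genes from gd18 to pnd2, and 4385 genes from gd11 to pnd2. Without gd11 replicates 16 and 17, 2 of the 9 were called from gd11 to gd12, further immediate early genes numbered 19, 11, 7 and 8 over the 4 later steps, and all genes 2368, 1265 and 1886 over the last 3. Without gd12 replicates 13 and 14, counts from gd11 to gd12 were 3 further immediate early genes, 5 further heat shock genes and 1785 genes in all, those from gd12 to gd14 were 5, 1 and 943, and 1 of the 9 was called from gd18 to pnd2.

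With gd12 replicates 13 and 14 left out, which leaves 1 gd12 array, the gd11 to gd12 calls of Dusp5, Cebpb and Klf4 and the gd12 to gd14 calls of Gadd45g, Hspa1a and Hspa4l were lost. With the beta-actin covariate or only 2 stages, those of Dusp5, Klf4, Hspa1a and Hspa13 from gd11 to gd12 were lost, and with probe sets averaged that of Hspa4 from gd14 to gd16.

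Leaving out each array in turn gave 2 to 5, 1 to 2, 0 to 1, 0 to 1, 0 to 1 and 4 to 5 of the 9 genes over the 6 comparisons. Further immediate early genes numbered 5 to 9, 8 to 18, 1 to 6, 1 to 7, 0 to 7 and 20 to 25. Further heat shock genes numbered 2 to 11, 5 to 10, 5 to 10, 1 to 11, 1 to 5 and 18 to 21. All genes numbered 1671 to 3161, 1780 to 3228, 494 to 1928, 189 to 964, 437 to 1558 and 5965 to 7056, against 3067, 2681, 1488, 700, 1118 and 6965 with every array. Fosb, Junb, Atf3 and, at gd11, Hspa1a, Egr2 and Egr4 lay close to background, which limits the differences that these arrays can show for them.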
